A study of Drosophila melanogaster with 23 samples.

Results

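These measurements ask whether female and male fruit flies changed the same transcripts when adults lived at 28 °C rather than 24 °C. The quantity described is a difference of differences, the female change at 28 °C against 24 °C minus the male change, and the libraries were chosen by their labels for sex and temperature. They number 15 of the 23 in the series: 4 of females at 28 °C, 4 of females at 24 °C, 3 of males at 28 °C and 4 of males at 24 °C. All flies were Drosophila melanogaster of the white-eyed laboratory strain w1118, collected as virgins, and each library holds the polyadenylated RNA of a pool of 10 whole flies. In both sexes the 28 °C flies were 35 days old and the 24 °C flies 45 days old. Temperature and age therefore cannot be told apart within a sex, although the age gap was equal in females and males. The pools are labelled as biological replicates, and nothing says whether pools of a group came from separate vials or parents, so the p-values measure the spread between pools only. The 8 libraries of flies kept at 18 °C entered the fit for the estimate of the spread and are not compared here.

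Flies do not regulate body temperature, and warmth speeds most of their physiology, including feeding, digestion and egg production. Adult females spend much of their metabolism on eggs: the fat body, an organ that combines roles of liver and adipose tissue, and the follicle cells make yolk proteins, and the gut of females is larger and more active in digestion than that of males. The stress genes of the Turandot family code for small secreted proteins that the fat body releases after heat, infection or injury, many of them under the JAK/STAT pathway, in which cytokines of the unpaired family activate a receptor, a kinase and a transcription factor. The gut holds its own immune control, in which amidases of the PGRP-SC group degrade bacterial peptidoglycan and thereby damp the Imd pathway, the fly's response to Gram-negative bacteria.

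The 15 libraries summed to between 17727137 and 23194619 expected counts, and the smallest female total, 21998441, exceeded the largest male total, 20119003. Levels are given as CPM, the usual unit of counts relative to library size, with sizes scaled within each sex, so that they compare 28 °C with 24 °C in a sex but not females with males. Levels taken relative to library totals without that scaling are marked as such. Sex labels were checked on the X-linked RNA lncRNA:roX1, which males use for dosage compensation: 4.95 to 8.61 CPM in females at 28 °C, against 6.57 to 8.05 CPM in females at 24 °C, and 792 to 895 CPM in males at 28 °C, against 795 to 1065 CPM in males at 24 °C. Its change did not pass the test in females or in males, and the log2 difference between the sexes was -0.00 ± 0.18 (SE). Of 9698 genes tested with edgeR's quasi-likelihood test, 458 (4.72%) changed by different amounts in females and males at an adjusted p under 0.01 (Benjamini-Hochberg). The change was more positive in females for 203 genes (2.09%) and more negative for 255 (2.63%). Without adjustment, 2811 of the 9698 genes had a p under 0.05, the background for such counts in the lists below. Within a sex, 2730 genes (28.2%) passed in females and 998 (10.3%) in males, but 1 male group had 3 libraries, so these shares do not compare the size of the responses. Rises made up 39.1% of the female calls (24.6% with library totals) and 47.7% of the male calls (34.6% with scaling across all 23 libraries).

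The count and its direction depended on scaling and on single libraries. Positive differences made up 44.3% of the calls with scaling within each sex, 62.9% with scaling across all 23 libraries, 31% with DESeq2 and 27.9% with library totals alone. Calls over all genes numbered 410 with scaling across all 23 libraries, 910 with DESeq2 and 638 with library totals. These are the background for list counts under the same settings below. Under all 4 scalings 326 genes were called with the same sign, 174 positive and 152 negative. The count was 290 without male 28 °C replicate 1, 281 without male 28 °C replicate 2 and 275 when the 18 °C libraries were left out of the fit. The positive calls were the larger: their median log2 difference was 1.47 and 66 exceeded 2, whereas the median of the negative calls was -0.78 and 13 lay below -2.

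**Figure D1:**
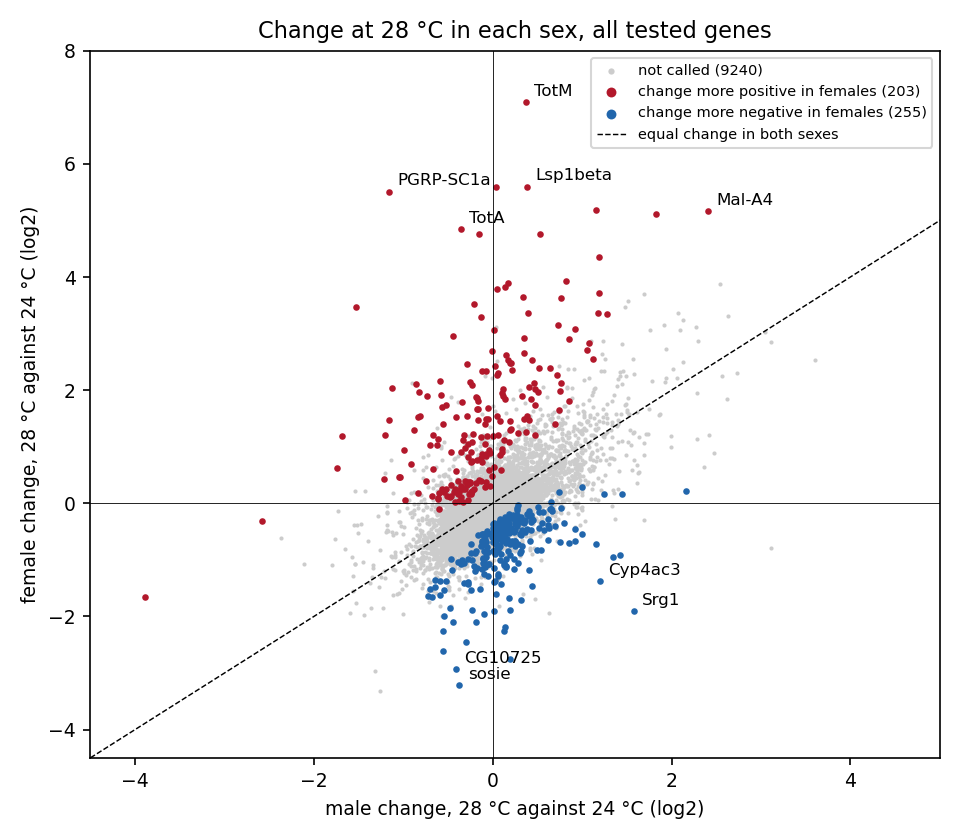
Log2 change at 28 °C against 24 °C in females (vertical axis) and in males (horizontal axis) for the 9698 tested genes, each point 1 gene; red marks the 203 genes whose change was more positive in females, blue the 255 whose change was more negative, grey those not called, and the dashed line equal change. Most red points stand high above a male change near 0, whereas the blue points lie in a band close under the dashed line.

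Most differences came from a response seen in the female comparison. Of the 203 positive calls, 147 rose in females with no call in males, 30 fell in males with no call in females, 11 rose in both sexes but further in females, 9 rose in females and fell in males, 1 fell in both and 5 passed in neither sex alone. Of the 255 negative calls, 192 fell in females with no call in males, 32 rose in males with no call in females, 11 fell in females and rose in males, 10 fell in both but further in females and 10 passed in neither. Opposite changes called in both sexes were thus few. A male change that missed the threshold is not counted among them, and 1 male group had 3 libraries. Over all tested genes, 544 passed in both sexes, and 524 of these moved the same way and 20 moved in opposite ways. Each of those 20 also passed the test of the difference. That adds no separate evidence, because opposite changes from the same fit add up in the difference.

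The Turandot genes rose strongly in females and passed in no case in males, and TotM had the largest difference of any called gene. All 4 listed members in the table, TotA, TotC, TotM and TotX, were called, and 4 further listed members were not analysed here. This list and those below were chosen with earlier results of these data known, so counts of calls in them are descriptive. TotM had 636, 244, 115 and 1410 CPM in females at 28 °C, against 3.51, 6.21, 4.25 and 3.60 CPM in females at 24 °C. The male libraries held 21.5, 39.6 and 13.1 CPM at 28 °C, against 6.39, 38.5, 24.3 and 7.30 CPM at 24 °C. Every female library at 28 °C stood above every female library at 24 °C, while the male groups overlapped. The log2 change was 7.10 in females and 0.37 in males, a difference of 6.72 ± 0.99, adjusted p = 0.000201. TotA, the best known member of the family, had 1643, 951, 917 and 3443 CPM in females at 28 °C, against 38.0, 98.9, 85.2 and 19.0 CPM in females at 24 °C. In males TotA gave 52.8, 167 and 95.2 CPM at 28 °C, against 51.3, 167, 207 and 114 CPM at 24 °C, so that the male groups overlapped, and the log2 difference was 5.21 ± 0.81, adjusted p = 0.000346. TotC, which lies beside TotA on chromosome 3R (the pair spans bases 20871036 to 20873580 of the dm6 build), differed by 5.55 ± 1.05, adjusted p = 0.00176, and TotX by 4.92 ± 0.79, adjusted p = 0.000475. The 28 °C females varied widely in these genes: replicate 4 was the highest for all 4 members, and TotM ranged over 12.3-fold among the 4 pools. Each of the 4 genes was still called when any of the 15 libraries was left out. TotA and TotC are related in sequence, and the split of their shared reads was estimated by the authors' counting.

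None of the 11 tested genes of the JAK/STAT pathway was called for the difference with edgeR (beside 4.72% of all genes). At that share few calls fall in a list of 11, so this count says little about the pathway. DESeq2 called 3 (beside 910 of all 9698 genes), and 4 had an unadjusted p under 0.05 with edgeR (beside 2811 of all 9698). Their median log2 difference was -0.01 beside -0.01 over all genes. Within a sex, 3 of the 11 rose in females (beside 11% of all genes) and 2 in males (beside 4.91%), and upd3 alone fell, in females. The complement-like genes Tep2 (log2 1.72 in females and 0.95 in males) and Tep4 (1.05 and 1.06) rose in both sexes, and the transcription factor gene Stat92E rose in females (0.40). The cytokine gene upd3 had 1.03, 1.71, 1.60 and 1.97 CPM in females at 28 °C, against 6.23, 2.35, 7.92 and 5.72 CPM in females at 24 °C, and fell in females (log2 -1.82, adjusted p = 0.000513). The difference for upd3 was -1.88 ± 0.53, adjusted p = 0.0243. Socs36E, a feedback inhibitor that the pathway switches on, had 20.01, 28.9, 27.2 and 30.4 CPM in females at 28 °C, against 51.7, 29.3, 56.0 and 47.2 CPM in females at 24 °C, with a difference of -1.26 ± 0.35, adjusted p = 0.0213. Each of the 4 pools of 28 °C females lay above all 24 °C females for the Turandot genes and below them for upd3. The counts of upd3 were low and its difference did not pass, while Tep2, Tep4 and Stat92E rose in the same females. A link between these genes and the Turandot genes was not tested.

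The PGRP-SC amidases and pirk, negative regulators of the Imd pathway, rose in females as well. PGRP-SC1a had 116, 144, 152 and 122 CPM in females at 28 °C, against 1.34, 2.22, 7.64 and 0.636 CPM in females at 24 °C. Males held 24.4, 19.1 and 35.4 CPM at 28 °C, against 43.2, 93.4, 52.3 and 45.5 CPM at 24 °C. The female groups stood far apart, and the 3 males at 28 °C all lay below the 4 males at 24 °C, a male change that did not pass (log2 -1.16, adjusted p = 0.226). The log2 difference was 6.67 ± 1.04, adjusted p = 0.000348 for PGRP-SC1a, 5.01 ± 0.82, adjusted p = 0.000538 for its near-identical neighbour PGRP-SC1b, and 3.05 ± 0.50, adjusted p = 0.000507 for PGRP-SC2. The 3 genes lie together on chromosome 2R, between bases 8709733 and 8717695, and reads shared by PGRP-SC1a and PGRP-SC1b cannot be placed with certainty. For PGRP-SC2 the values were 252, 334, 384 and 261 CPM in females at 28 °C, against 37.8, 39.6, 51.6 and 18.2 CPM in females at 24 °C, and the male groups overlapped (101 to 206 CPM in males at 28 °C, against 91.2 to 198 CPM in males at 24 °C). The gene pirk, whose product removes the Imd receptors from the cell surface, had 35.7, 43.0, 61.3 and 24.9 CPM in females at 28 °C, against 7.45, 6.17, 8.14 and 5.17 CPM in females at 24 °C, and differed by 2.47 ± 0.39, adjusted p = 0.000411. PGRP-LC, the main receptor of the pathway, went the other way: it had 94.3 to 98.7 CPM in males at 28 °C, against 55.1 to 60.2 CPM in males at 24 °C, a rise called in males (log2 0.76) and not in females (log2 -0.08), and a difference of -0.84 ± 0.18, adjusted p = 0.00393, lost without male 28 °C replicate 2 (adjusted p = 0.0106).

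**Figure D2:**
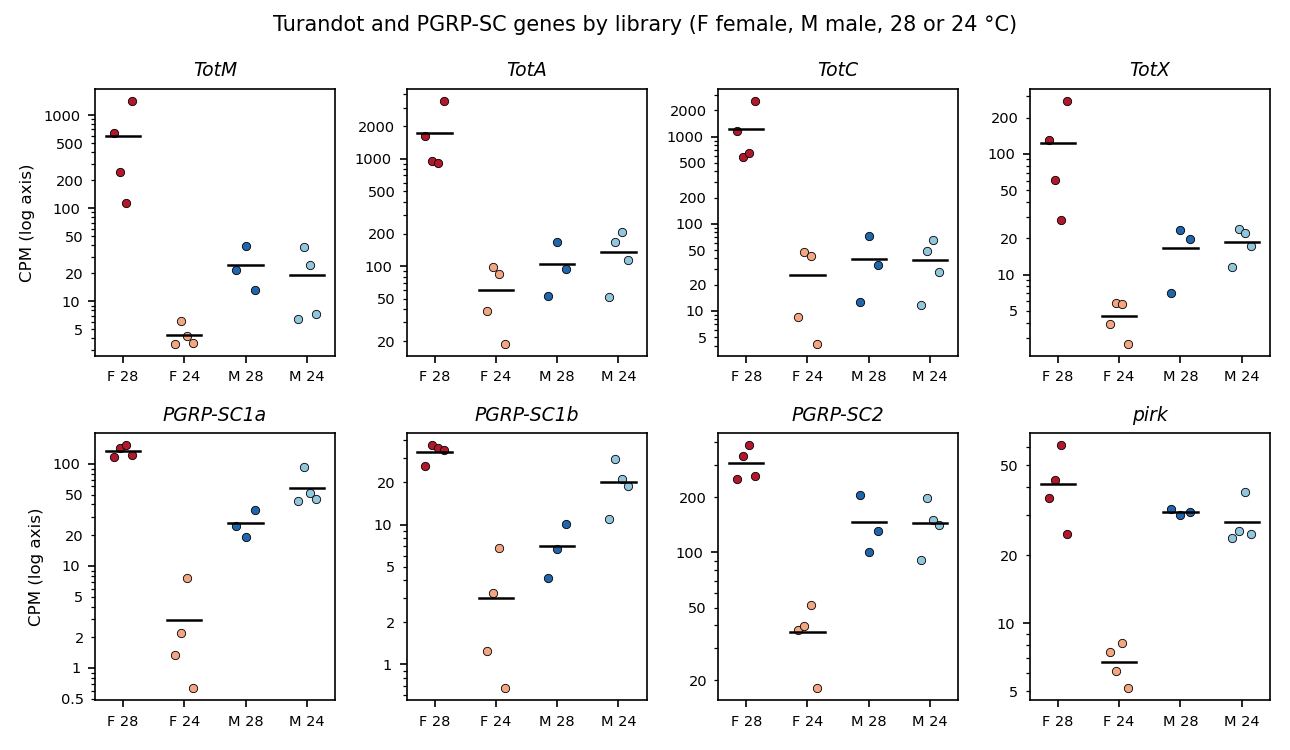
CPM of each library (points, logarithmic axis) and group mean (bars) for 4 Turandot genes, the 3 PGRP-SC genes and pirk, in females at 28 °C and 24 °C (F 28, F 24) and males at 28 °C and 24 °C (M 28, M 24). In each panel all 4 points of females at 28 °C lie above all 4 of females at 24 °C, and the PGRP-SC1a and PGRP-SC1b points of males at 28 °C lie below those of males at 24 °C.

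Antimicrobial peptide genes code for the effectors of the Toll and Imd pathways. Among those above the level filter, more passed in females than in males, but not among those below it. None of the 22 tested antimicrobial peptide genes was called for the difference with edgeR (4 at an unadjusted p under 0.05, 1 with DESeq2), with a median log2 change of 1.25 in females and 0.91 in males. Within a sex, 15 of the 22 rose in females (beside 11% of all genes) and 7 in males (beside 4.91%), and none fell. The table held 31 listed members, and the rest fell below the level filter. In the fit without that filter, AttA, CecC, DptB, Mtkl and IBIN rose in males with no call in females. CecA1 rose in females with no call in males, DptA rose in both, and AttD and CecA2 passed in neither. BomS2, a short peptide of the Toll response, had 327 to 578 CPM in females at 28 °C, against 156 to 214 CPM in females at 24 °C. In males BomS2 had 509, 756 and 528 CPM at 28 °C, against 277, 305, 564 and 260.2 CPM at 24 °C, a change that did not pass (adjusted p = 0.0575), and the difference was 0.63 ± 0.39, adjusted p = 0.299. The members with the most negative values were Mtk (metchnikowin, an antifungal peptide) at -3.91 ± 1.201, adjusted p = 0.0363, and Drs (drosomycin) at -1.35 ± 0.42, adjusted p = 0.0363. Mtk varied from 8.37 to 50.5 CPM among females at 28 °C, and neither difference passed. Of the 37 tested genes of Toll and Imd recognition and signalling, 4 were positive calls and 1 negative (beside 2.09% and 2.63% of all genes), and all 5 are named above. Vago, a secreted antiviral factor chosen after its values were seen, fell in females, to 7.88, 11.5, 10.9 and 9.67 CPM at 28 °C, against 24.5, 21.3, 47.7 and 55.5 CPM at 24 °C, with a difference of -1.91 ± 0.43, adjusted p = 0.00612, lost in 8 of the 15 fits that each left out 1 library (adjusted p up to 0.021, without male 28 °C replicate 1).

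Digestive enzymes of the gut held more positive calls than any other list. Of 41 tested proteases, carbohydrases and lysozymes, 9 were called more positive in females (beside 2.09% of all genes) and none more negative, and the median log2 change was 1.46 in females and 0.23 in males. Leaving out 1 library gave between 5 and 11 calls. Whole flies were sequenced, so more gut cells and more RNA per gut cell cannot be told apart, here or for any tissue below. The maltases Mal-A3 and Mal-A4, which split sugars, lie next to each other on chromosome 2R (bases 8455909 to 8460884). Mal-A3 had 154.9, 204, 272 and 159 CPM in females at 28 °C, against 5.93, 6.26, 5.67 and 4.79 CPM in females at 24 °C, and 108, 105 and 129 CPM in males at 28 °C, against 14.3, 34.6, 32.0 and 47.6 CPM in males at 24 °C. It rose in both sexes without overlap, by 5.12 in females and 1.82 in males on the log2 scale, and the difference was 3.30 ± 0.41, adjusted p = 2.67e-05. For Mal-A4 the changes were 5.16 and 2.41, with a difference of 2.75 ± 0.48, adjusted p = 0.00095.

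The serine protease Jon44E and the lysozymes were not called in males. Jon44E had 17.5, 22.2, 23.1 and 19.1 CPM in females at 28 °C, against 4.07, 5.33, 7.18 and 3.48 CPM in females at 24 °C, and 6.41, 4.46 and 7.12 CPM in males at 28 °C, against 8.996, 17.6, 13.6 and 12.1 CPM in males at 24 °C. It rose in females, its male change of -1.13 did not pass (adjusted p = 0.0226), and the difference was 3.16 ± 0.47, adjusted p = 0.000201. Jon25Biii (difference 2.75 ± 0.55, adjusted p = 0.00268) and Jon65Ai (2.42 ± 0.50, adjusted p = 0.0033), of the same family, were called likewise, each lost without male 28 °C replicate 2 (adjusted p = 0.0129 for Jon25Biii and 0.0144 for Jon65Ai). LysB, a lysozyme of the midgut that digests bacterial walls, had 521 to 703 CPM in females at 28 °C, against 81.9 to 164 CPM in females at 24 °C, and the overlapping male groups held 118 to 188 CPM in males at 28 °C, against 117 to 223 CPM in males at 24 °C. Its difference was 2.46 ± 0.32, adjusted p = 3.92e-05, and those of LysE and LysD, beside it on chromosome 3L (bases 1207371 to 1213406), were 2.07 ± 0.39 and 1.26 ± 0.28. Reads of these near-identical lysozyme genes were divided between copies by estimation, and the LysD call was lost in 8 of the 15 fits that each left out 1 library (adjusted p up to 0.0253, without male 28 °C replicate 1). The ninth call, the lipase magro (mag), had a difference of 2.03 ± 0.45, adjusted p = 0.00597, lost in 8 of the 15 fits that each left out 1 library (adjusted p up to 0.0248, without male 28 °C replicate 1).

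Several genes outside the list also differed. CG7916, CG7953, CG8093 and CG3739 were named by rule, from the size of their difference, while CG8997, CG7968, CG33306 and Try29F were chosen after their values were seen. CG8997, CG7916, CG7953, CG7968 and CG33306 form a run of 5 called neighbours on chromosome 2L, between bases 13842888 and 13850329. CG7953 had 314 to 537 CPM in females at 28 °C, against 21.8 to 47.2 CPM in females at 24 °C, and 117 to 131 CPM in males at 28 °C, against 66.3 to 189 CPM in males at 24 °C, a difference of 3.75 ± 0.46, adjusted p = 2.45e-05. CG8997 differed by 3.69 ± 0.37, adjusted p = 3.54e-06 and CG7916 by 3.73 ± 0.46, adjusted p = 2.48e-05, and in all 3 genes the female groups did not overlap while the male groups did. The call of CG33306 (1.91 ± 0.45) was lost in 11 of the 15 fits that each left out 1 library (adjusted p up to 0.033, without male 28 °C replicate 1), and that of CG7968 (1.84 ± 0.43) in 13 of the 15 fits that each left out 1 library (adjusted p up to 0.027, without male 28 °C replicate 2). CG8093 had 139, 204, 249 and 168.6 CPM in females at 28 °C, against 8.70, 9.01, 5.26 and 5.21 CPM in females at 24 °C, and differed by 4.22 ± 0.44, adjusted p = 4.77e-06. CG3739 rose in both sexes, by 5.19 in females and 1.15 in males (log2), with a difference of 4.04 ± 0.41, adjusted p = 3.54e-06. Try29F, a trypsin, had 8.89 to 12.1 CPM in females at 28 °C, against 0.754 to 1.19 CPM in females at 24 °C, a difference of 2.97 ± 0.36, adjusted p = 1.74e-05. Genes for structural proteins of the peritrophic lining gave a count of 0 of 3 with edgeR (2 with DESeq2, 2 at an unadjusted p under 0.05).

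Yolk genes and some genes of the fat body rose in females. Yp3, a yolk protein, had 11988, 14978, 11861 and 10170 CPM in females at 28 °C, against 2422, 4432, 3572 and 2174 CPM in females at 24 °C. Male values were 14.4, 15.1 and 22.4 CPM at 28 °C, against 30.5, 30.97, 29.9 and 31.2 CPM at 24 °C, and the difference was 2.78 ± 0.34, adjusted p = 2.46e-05. Neither sex overlapped between temperatures for Yp3, and the male values run opposite to the female ones, although the male change did not pass (adjusted p = 0.0252). Yp1 changed by 2.152 in females and -0.26 in males, a difference of 2.41 ± 0.56, adjusted p = 0.00816 whose call was lost in 11 of the 15 fits that each left out 1 library (adjusted p up to 0.0324, without male 28 °C replicate 2). For Yp2 the difference of 2.23 ± 0.64, adjusted p = 0.0267 did not pass. The 3 yolk genes made up 4.34 to 4.95% of all counts in females at 28 °C, against 0.754 to 1.46% in females at 24 °C, and at most 0.00693% in males. Eggshell genes, which follicle cells make late in egg formation, gave 0 calls of 3 tested (0 at an unadjusted p under 0.05, 0 with DESeq2), and 9 more members fell below the level filter. Summed over the 12 eggshell genes in the table, the level was 1721 to 2239 in females at 28 °C, against 1102 to 1562 in females at 24 °C (CPM of library totals).

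Lsp1beta, a larval serum protein of the fat body that stores amino acids, had 339, 467, 514 and 41.8 CPM in females at 28 °C, against 4.59, 12.5, 2.84 and 8.14 CPM in females at 24 °C. Males held 30.4, 35.4 and 38.1 CPM at 28 °C, against 20.6, 27.7, 44.9 and 13.2 CPM at 24 °C. The female groups did not overlap but replicate 4 at 28 °C lay far below the other 3 pools, and the difference was 5.22 ± 0.91, adjusted p = 0.000871. Of 28 tested fat body genes, 4 were called, all positive (beside 2.09% of all genes; median 0.27): besides Lsp1beta they were Gnmt, Adh and Men. Gnmt, a glycine methyltransferase that uses up S-adenosylmethionine, had 106, 154.6, 120.4 and 54.0 CPM in females at 28 °C, against 5.28, 1.95, 6.86 and 7.25 CPM in females at 24 °C, and 219.9, 316 and 294 CPM in males at 28 °C, against 95.2, 105, 195 and 90.7 CPM in males at 24 °C. Its difference was 3.16 ± 0.47, adjusted p = 0.000232. Adh, alcohol dehydrogenase, had 2450 to 3366 CPM in females at 28 °C, against 632 to 923 CPM in females at 24 °C, and 2981 to 3311 CPM in males at 28 °C, against 1918 to 3373 CPM in males at 24 °C, a difference of 1.56 ± 0.23, adjusted p = 0.000176. Men, the malic enzyme that supplies NADPH for lipid synthesis, differed by 0.88 ± 0.20, adjusted p = 0.00601, lost in 8 of the 15 fits that each left out 1 library (adjusted p up to 0.0258, without male 28 °C replicate 2). Tsf1, the iron carrier transferrin, was chosen after its values were seen. It rose to between 1616 and 2976 CPM in females at 28 °C, against 197 to 281 CPM at 24 °C, and rose in males as well (log2 1.28), with a difference of 2.06 ± 0.36, adjusted p = 0.000977. Sodh1, a sorbitol dehydrogenase, and CCHa2, a nutrient-responsive peptide hormone of fat body and gut, were chosen in the same way and differed by 3.12 ± 0.34, adjusted p = 7.03e-06, and by 2.22 ± 0.31, adjusted p = 8.75e-05.

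The methionine and glycine genes around Gnmt split by direction. This list was made after the values were seen, so its counts describe it only: of 12 tested genes 4 were positive calls and 5 negative. Gnmt, Gcat, ppl and CG6415, all of which act on glycine or its cleavage, were positive. The negative calls included Sam-S, which makes S-adenosylmethionine, Ahcy, which hydrolyses its product, and Cbs and Cth, which carry homocysteine sulphur on to cysteine. Cbs had 90.5, 78.3, 88.6 and 81.9 CPM in females at 28 °C, against 119, 124, 114 and 114 CPM in females at 24 °C, and 46.4, 42.9 and 46.7 CPM in males at 28 °C, against 34.6, 38.9, 36.2 and 34.9 CPM in males at 24 °C. Neither sex overlapped, the log2 changes of -0.47 in females and 0.33 in males were both called, and the difference was -0.80 ± 0.11, adjusted p = 7.75e-05. Ahcy rose in males, to 318, 216 and 196 CPM at 28 °C, against 166, 163, 181 and 156 CPM at 24 °C, and its difference was -0.89 ± 0.16, adjusted p = 0.00111. Differences for Sam-S and Cth were -0.56 and -0.56, and the Sam-S call was lost without male 28 °C replicate 1 (adjusted p = 0.0136). The Cth call was lost in 5 of the 15 fits that each left out 1 library (adjusted p up to 0.0132, without male 28 °C replicate 1). The call of Gcat (1.75) was lost in 7 of the 15 fits that each left out 1 library (adjusted p up to 0.0169, without male 28 °C replicate 2), and that of CG6415 (1.24) in 10 of the 15 fits that each left out 1 library (adjusted p up to 0.0186, without male 28 °C replicate 2). That of ppl, at 0.85 ± 0.15, adjusted p = 0.00084, held in every such fit.

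**Figure D3:**
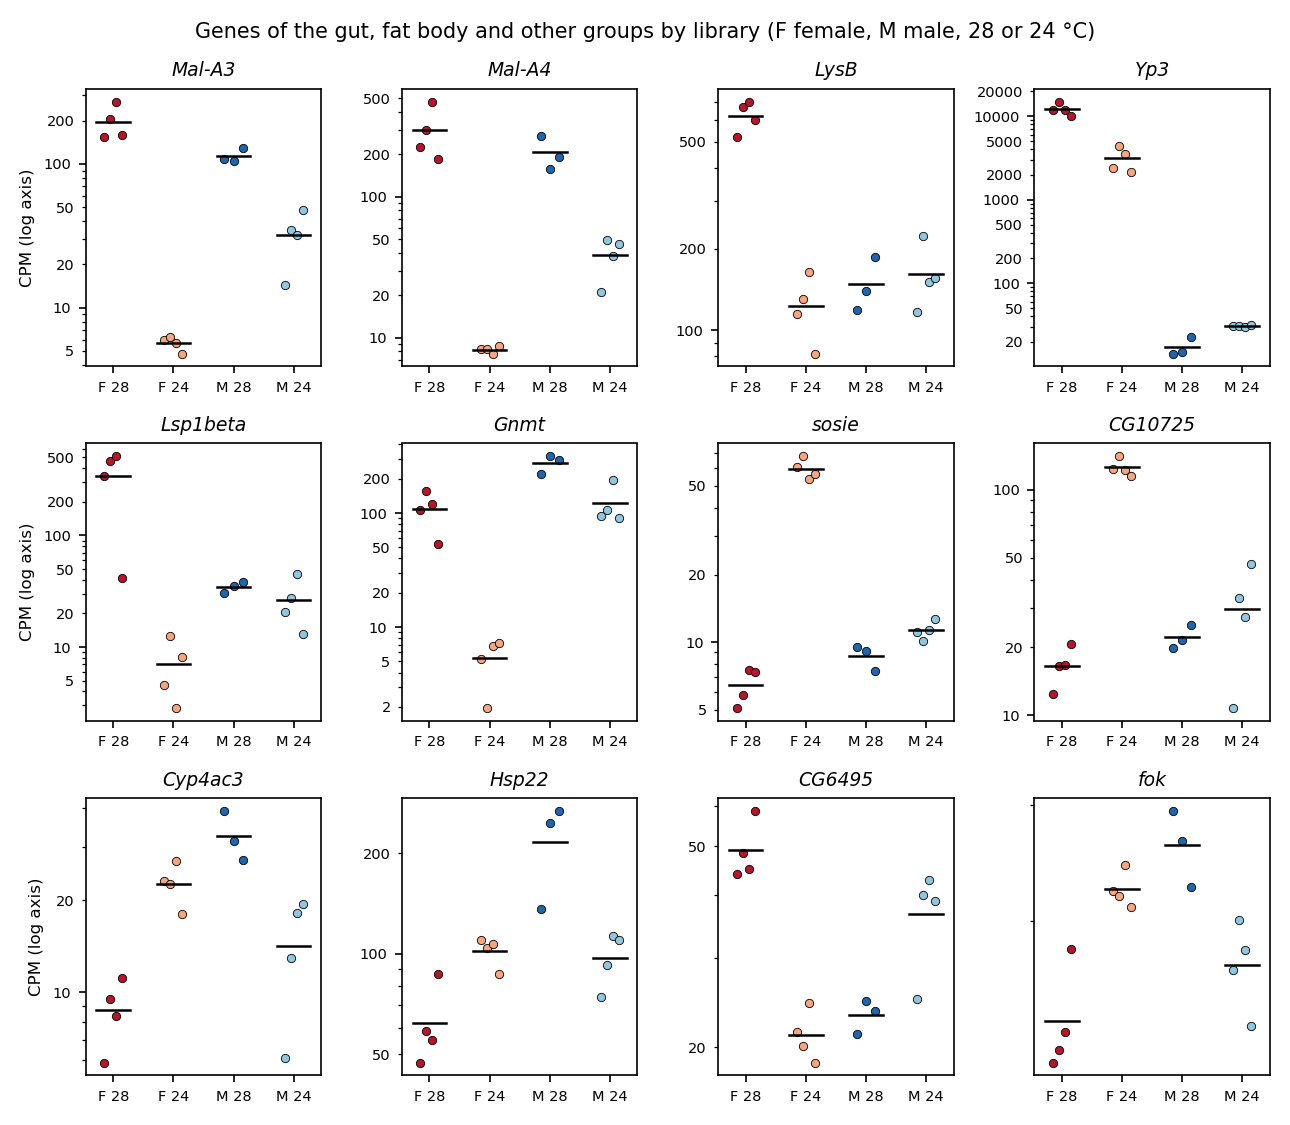
CPM of each library (points, logarithmic axis) and group mean (bars) for 12 genes of the gut, fat body and other groups, in females at 28 °C and 24 °C (F 28, F 24) and males at 28 °C and 24 °C (M 28, M 24). Mal-A3 and Mal-A4 rise in both sexes, sosie separates the female groups far more than the male groups, and CG6495 and fok move in opposite ways in females and males.

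Heat shock genes, whose products refold damaged proteins, did not move as a group. Among 8 small heat shock genes 2 were positive calls and 1 negative (beside 2.09% and 2.63% of all genes). Hsp27 had 459, 394, 359 and 389 CPM in females at 28 °C, against 226, 208, 165 and 256 CPM in females at 24 °C, and differed by 1.25 ± 0.25, adjusted p = 0.0024, a call lost without male 28 °C replicate 2 (adjusted p = 0.0103). Hsp22, the mitochondrial member, had 47.2, 58.6, 55.1 and 87.1 CPM in females at 28 °C, against 109.9, 104, 107 and 87.2 CPM in females at 24 °C. In males Hsp22 rose to 136, 246 and 268 CPM at 28 °C, against 74.0, 92.3, 113 and 109.5 CPM at 24 °C, and the difference was -1.87 ± 0.36, adjusted p = 0.00209. CG4456, with 4.09 to 6.87 CPM in females at 28 °C, against 0.932 to 2.16 CPM in females at 24 °C and 30.5 to 37.3 CPM in males at 28 °C, against 32.9 to 61.8 CPM in males at 24 °C, differed by 2.12 ± 0.35, adjusted p = 0.000507, in the direction opposite to Hsp22. The annotation places CG4456 (chromosome 3L, bases 9372722 to 9374964) over the whole of Hsp22 (bases 9372931 to 9374964), so reads of this pair were divided by estimation. Of 16 larger chaperone genes 3 were called, all negative (beside 2.63% of all genes): the constitutive Hsc70-4 (-0.67 ± 0.11, adjusted p = 0.000507), Hsc70-1 (-1.15 ± 0.22, adjusted p = 0.00163) and the inducible Hsp70Bc (-1.54 ± 0.36, adjusted p = 0.00816), whose call was lost in 12 of the 15 fits that each left out 1 library (adjusted p up to 0.0243, without male 28 °C replicate 2) and with scaling across all libraries (adjusted p = 0.0106). Hsp70Ab, a close copy of Hsp70Bc, rose in males (log2 0.99) and had a difference of -0.31 ± 0.31, adjusted p = 0.544. In the endoplasmic reticulum list, 21 of 25 values lay above 0 (median 0.19), and 2 genes were positive calls (beside 2.09% of all genes). They were the translocation factor Sec63 (0.34 ± 0.07, adjusted p = 0.003) and the stress sensor Atf6 (0.48 ± 0.10, adjusted p = 0.0034). With library totals neither passed, and the Sec63 call was lost without male 28 °C replicate 1 (adjusted p = 0.0127) and without male 28 °C replicate 2 (adjusted p = 0.0116), that of Atf6 without male 28 °C replicate 2 (adjusted p = 0.0118).

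Genes of the translation machinery fell in females more than in males. All 86 tested cytoplasmic ribosomal protein genes had a negative difference, from -0.68 to -0.15 with a median of -0.37 (log2), beside a median of -0.01 over all genes. They fell in females for 85 of 86 (beside 17.1% of all genes; median -0.56) and in males for 6 of 86 (beside 5.38%; median -0.19). The difference was called for 14 of them (beside 2.63% of all genes). This count depended on scaling: 53 with DESeq2, 57 with library totals and 3 with scaling across all 23 libraries (beside 910, 638 and 410 calls of either sign over all genes). The median stayed negative, at -0.41, -0.44 and -0.30 under these 3 settings. Leaving out 1 library gave between 2 and 27 calls. As a share of library totals, these genes together made up 75645 to 86944 in females at 28 °C, against 116282 to 133852 in females at 24 °C (CPM), and 76327 to 79142 in males at 28 °C, against 88232 to 89873 in males at 24 °C. RpL7A, a protein of the large subunit, had 1612, 1657, 1774 and 1949 CPM in females at 28 °C, against 2465, 2498, 2731 and 2237 CPM in females at 24 °C. Males held 1853, 1654 and 1667 CPM at 28 °C, against 1508, 1655, 1626 and 1766 CPM at 24 °C, and overlapped. The difference was -0.58 ± 0.12, adjusted p = 0.0032, lost without male 28 °C replicate 1 (adjusted p = 0.0132). The most negative value in the list belonged to RpL24-like (-0.68 ± 0.13, adjusted p = 0.00205) and the smallest adjusted p to RpL7-like (-0.58 ± 0.10, adjusted p = 0.00075), relatives of ribosomal proteins that act in the assembly of the large subunit and are not part of the finished ribosome.

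Other genes of translation come from lists and picks made after the values were seen. Of 13 subunits of eIF3, the complex that helps load initiator tRNA and mRNA onto the small ribosomal subunit, all 13 had a negative difference and 7 were called (beside 2.63% of all genes), with a median of -0.37 (8 with DESeq2, 7 with library totals, 2 with scaling across all libraries and between 3 and 7 when 1 library was left out). In females their median change was -0.28 and in males 0.07. The subunit eIF3h had 230.5, 236, 237 and 249.8 CPM in females at 28 °C, against 293, 303, 314 and 302 CPM in females at 24 °C, and 269.8, 253 and 254 CPM in males at 28 °C, against 256, 226, 239.8 and 220.1 CPM in males at 24 °C. Its female groups did not overlap, its male groups did, and the difference was -0.48 ± 0.09, adjusted p = 0.000977. The helicase eIF4A differed by -0.47 ± 0.09, adjusted p = 0.00218, a call absent with scaling across all libraries (adjusted p = 0.0123). In the wider list of 43 initiation and elongation factors 10 were called, all negative (beside 2.63% of all genes), with a median of -0.26, and 2 with scaling across all libraries. Single genes with negative calls, which act in ribosome assembly, were Nle (-0.72 ± 0.14, adjusted p = 0.0024), Noc3 (-0.59 ± 0.11, adjusted p = 0.00138) and Non1 (-0.90 ± 0.17, adjusted p = 0.00143). Non1 rose in males, to 809, 650 and 532 CPM at 28 °C, against 367, 448, 477 and 437 CPM at 24 °C, and its female change of -0.28 did not pass. Uhg1, whose introns carry small nucleolar RNAs, fell in females to 10.5, 9.22, 9.86 and 9.67 CPM at 28 °C, against 23.9, 28.98, 30.3 and 21.8 CPM at 24 °C, a difference of -1.09 ± 0.19, adjusted p = 0.000754. The gene r (rudimentary), which starts pyrimidine synthesis, had 48.1 to 65.2 CPM in females at 28 °C, against 108 to 130.1 CPM in females at 24 °C, and 48.6 to 52.0 CPM in males at 28 °C, against 40.5 to 42.9 CPM in males at 24 °C, a difference of -1.34 ± 0.15, adjusted p = 8.23e-06.

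**Figure D4:**
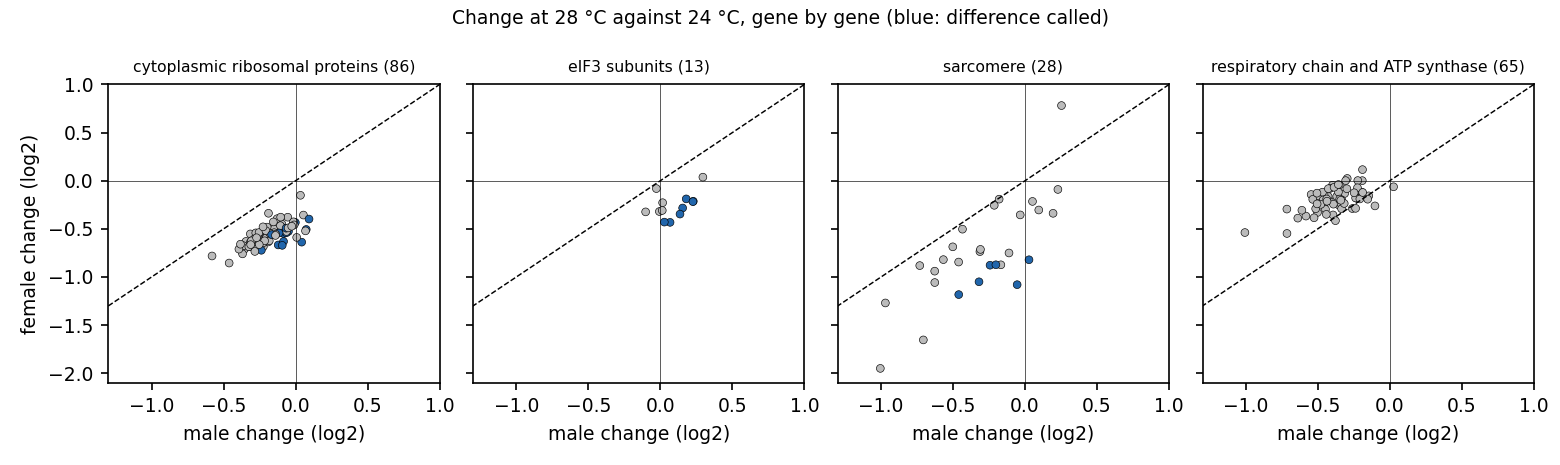
Log2 change at 28 °C against 24 °C in females (vertical axis) and males (horizontal axis) for 86 cytoplasmic ribosomal protein genes, 13 eIF3 subunits, 28 sarcomere genes and 65 genes of the respiratory chain, each point 1 gene; blue points had a called difference and the dashed line marks equal change. All ribosomal and eIF3 points lie under the line, 27 of 28 sarcomere points lie under it, and 58 of 65 respiratory chain points lie above it.

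Mitochondrial genes did not follow the cytoplasmic ribosome. None of the 65 tested genes of the respiratory chain and ATP synthase was called with edgeR (18 at an unadjusted p under 0.05, beside 2811 of all 9698 genes, and 0 with DESeq2). Of the 65, 58 had a positive difference, and the median was 0.21. Within a sex, 13 of them fell in females (beside 17.1% of all genes) and 36 in males (beside 5.38%). None of the 73 mitochondrial ribosomal protein genes (14 at an unadjusted p under 0.05, 1 with DESeq2) and none of the 33 proteasome genes (3 and 1) was called with edgeR, with medians of 0.06 and -0.01. Genes of DNA replication and the cell cycle, used by the dividing cells of the ovary and gut, also gave 0 calls of 36 (13 at an unadjusted p under 0.05, 0 with DESeq2), with 28 values above 0 and a median of 0.27. Clock genes gave 0 calls of 12 (4 and 1) and a median of 0.00. Sugar transporters gave 0 of 5 (4 at an unadjusted p under 0.05, 2 with DESeq2), and Osiris and cuticle proteins 0 of 19 (6 and 1).

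Muscle genes fell in females and, for fewer members, in males. Of 28 tested sarcomere genes, 21 fell in females (beside 17.1% of all genes) and 7 in males (beside 5.38%), 27 had a negative difference, and 6 were called (beside 2.63% of all genes), with a median difference of -0.40. The count was 10 with DESeq2, 7 with library totals and 1 with scaling across all libraries (beside 910, 638 and 410 calls of either sign over all genes). The median of the list stayed negative in all 3. The actin gene Act87E had 62.3, 80.0, 76.1 and 85.5 CPM in females at 28 °C, against 149, 147, 214 and 132 CPM in females at 24 °C, and 397 to 474 CPM in males at 28 °C, against 414 to 514 CPM in males at 24 °C. Its female groups did not overlap and its male groups did, with a difference of -1.02 ± 0.19, adjusted p = 0.00123. Zasp66, a protein of the Z-disc, fell in both sexes, with log2 changes of -1.18 in females and -0.46 in males. Its difference was -0.72 ± 0.15, adjusted p = 0.00407, lost without female 24 °C replicate 3 (adjusted p = 0.0102), without male 28 °C replicate 1 (adjusted p = 0.0158) and without male 24 °C replicate 3 (adjusted p = 0.0101) and with scaling across all libraries (adjusted p = 0.0115). Calls for Act57B, Mlc1, wupA and Tm2 lay between -0.85 and -0.63, and each was lost in 10 or 11 of the 15 fits that left out 1 library, with an adjusted p of up to 0.0152 for Act57B, 0.0195 for Mlc1, 0.0248 for wupA and 0.0273 for Tm2, in each case without male 28 °C replicate 1. None of these 4 passed with scaling across all libraries. Actin genes share much of their coding sequence, so their split was partly estimated.

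The basement membrane, the sheet of collagen and laminin around muscles, gut and fat body, was among the negative calls. The hemocyte list held 3 negative calls of 18 tested (beside 2.63% of all genes). All 3, LanA, LanB1 and vkg, code for laminin or collagen IV, which fat body and other cells also make. None of the other 15 hemocyte markers was called with edgeR, and DESeq2 called 6 of the 18 (beside 910 of all 9698 genes). LanA had 28.8, 44.9, 44.5 and 47.5 CPM in females at 28 °C, against 77.7, 78.2, 78.3 and 57.9 CPM in females at 24 °C, and 26.7, 42.3 and 41.2 CPM in males at 28 °C, against 18.6, 24.2, 27.6 and 30.4 CPM in males at 24 °C. Female groups did not overlap, the male groups did, and the difference was -1.36 ± 0.28, adjusted p = 0.0032, lost without male 28 °C replicate 2 (adjusted p = 0.0127). LanB1 differed by -1.43 ± 0.30, adjusted p = 0.00388, lost without female 24 °C replicate 1 (adjusted p = 0.0101), without male 28 °C replicate 2 (adjusted p = 0.0134) and without male 28 °C replicate 3 (adjusted p = 0.0108). For vkg the difference was -1.16 ± 0.27, adjusted p = 0.00737, lost in 11 of the 15 fits that each left out 1 library (adjusted p up to 0.0259, without male 28 °C replicate 2) and with scaling across all libraries (adjusted p = 0.01). In a list of 14 basement membrane genes made after the values were seen, the heparan sulphate proteoglycan trol (-0.85 ± 0.16, adjusted p = 0.00147) and the collagen-modifying enzyme Plod (-1.005 ± 0.19, adjusted p = 0.00187) were called as well, both in all 15 such fits. Female 28 °C replicate 1 was the lowest pool for LanA, LanB1, trol and vkg. In another list made in the same way, 4 of 12 genes of epidermal growth factor receptor signalling were negative calls (beside 2.63% of all genes). They were the ligand spi (-0.56 ± 0.10, adjusted p = 0.00095), the inhibitors aos (-1.02 ± 0.20, adjusted p = 0.00274) and sty (-0.69 ± 0.16, adjusted p = 0.00778) and the transcription factor pnt (-0.83 ± 0.18, adjusted p = 0.00532). The sty call was lost in 8 of the 15 fits that each left out 1 library (adjusted p up to 0.0278, without male 28 °C replicate 1) and with scaling across all libraries (adjusted p = 0.0202). The pnt call was lost in 8 of the 15 fits that each left out 1 library (adjusted p up to 0.0191, without male 28 °C replicate 1).

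**Figure D5:**
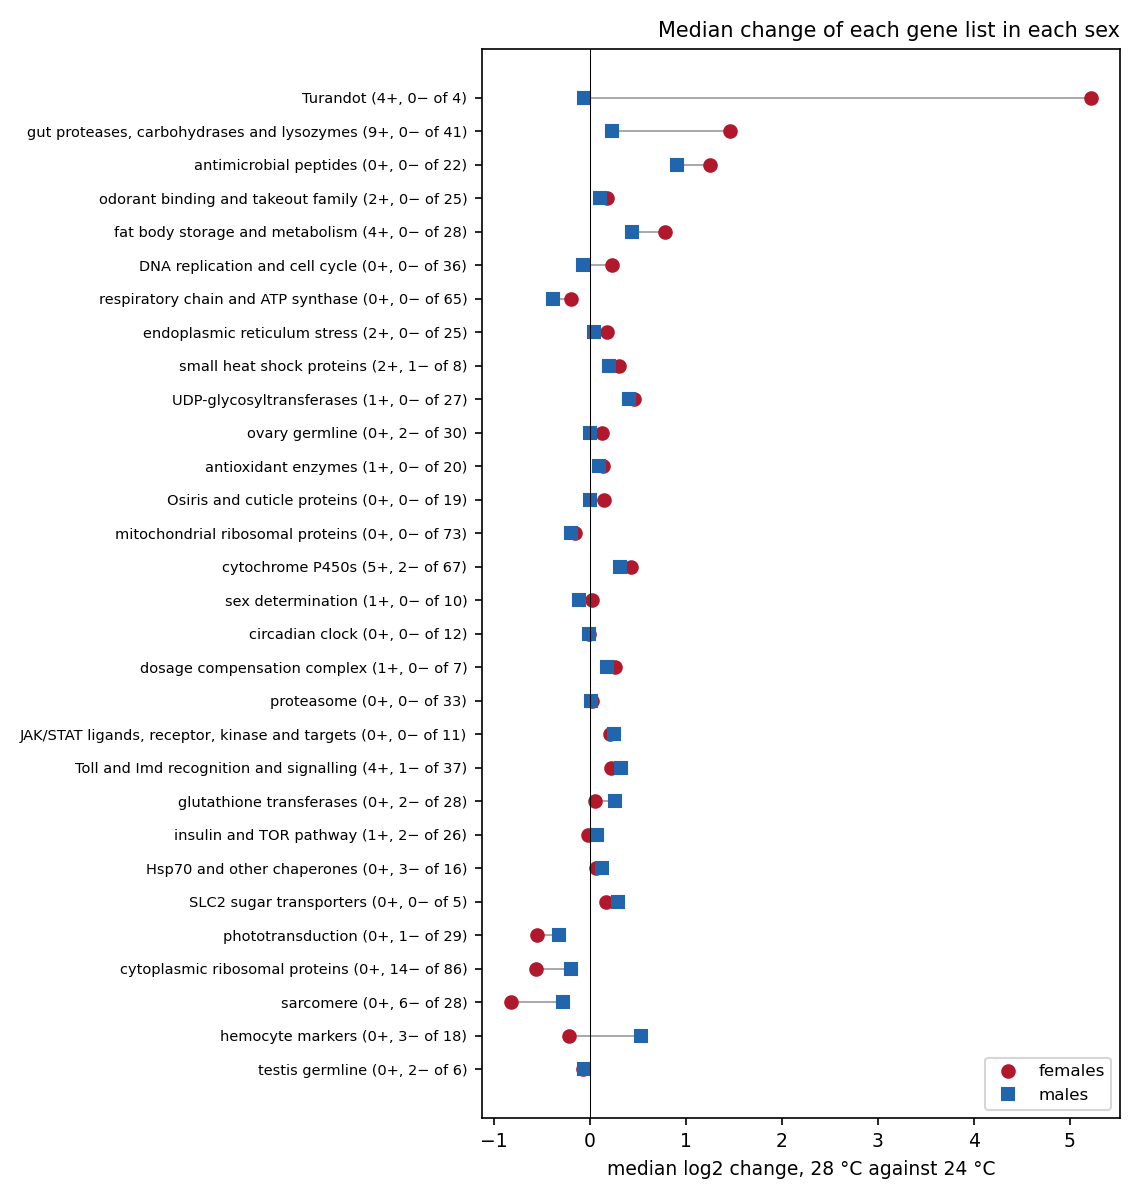
Median log2 change at 28 °C against 24 °C of each gene list with 4 or more tested genes, in females (circles) and males (squares), ordered by the median of the difference; labels give the positive and negative calls and the number tested. Lists made after the values were seen are not plotted, and the plotted lists were chosen with earlier results of these data known. Of those plotted, the Turandot and gut lists lie furthest right in females, the sarcomere and ribosomal protein lists lie further left in females than in males, and the hemocyte list lies left of 0 in females and right of it in males.

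The largest negative differences were single genes rather than a group. The gene sosie, which codes for a membrane protein of the follicle cells, had 5.08, 5.81, 7.53 and 7.36 CPM in females at 28 °C, against 60.6, 67.95, 53.5 and 56.6 CPM in females at 24 °C. Males held 9.57, 9.16 and 7.42 CPM at 28 °C, against 11.1, 10.1, 11.3 and 12.7 CPM at 24 °C. Neither sex overlapped, but the male groups lay close together (log2 -0.37, adjusted p = 0.0664) and the female groups far apart (log2 -3.21). The difference was -2.84 ± 0.19, adjusted p = 2.15e-08, the smallest adjusted p of the genes named here. CG10725 had 12.4, 16.4, 16.6 and 20.7 CPM in females at 28 °C, against 124, 141, 122 and 116 CPM in females at 24 °C, and the overlapping male groups held 19.8 to 25.2 CPM in males at 28 °C, against 10.8 to 46.9 CPM in males at 24 °C, and differed by -2.51 ± 0.41, adjusted p = 0.000533. Srg1 was low in every library, with 1.51, 1.61, 1.41 and 2.21 CPM in females at 28 °C, against 3.46, 1.42, 6.68 and 13.7 CPM in females at 24 °C, and 6.00, 3.13 and 2.29 CPM in males at 28 °C, against 1.02, 1.19, 1.31 and 1.55 CPM in males at 24 °C. Its difference, -3.48 ± 0.70, adjusted p = 0.00289, was the most negative of the called genes and was lost without male 28 °C replicate 1 (adjusted p = 0.0155). E(spl)m3-HLH, a target of Notch, had 2.32 to 4.38 CPM in females at 28 °C, against 8.99 to 14.1 CPM in females at 24 °C, and differed by -2.03 ± 0.35, adjusted p = 0.000764. Six4, a homeobox gene, and eya, a partner of related factors that was chosen after its values were seen, fell in females with differences of -2.15 ± 0.44, adjusted p = 0.00304, and -1.11 ± 0.21, adjusted p = 0.00147, and the Six4 call was lost without male 28 °C replicate 3 (adjusted p = 0.0205). Both sad, an enzyme of ecdysone synthesis, and Cyp4ac3 rose in males. For sad the values were 4.86, 6.07 and 5.18 CPM in males at 28 °C, against 2.09, 2.33, 2.25 and 1.35 CPM in males at 24 °C, and the difference was -2.33 ± 0.46, adjusted p = 0.0023. Cyp4ac3 had 5.90 to 11.2 CPM in females at 28 °C, against 18.1 to 26.9 CPM in females at 24 °C, and 27.0 to 39.4 CPM in males at 28 °C, against 6.11 to 19.4 CPM in males at 24 °C, with changes in opposite directions and a difference of -2.57 ± 0.42, adjusted p = 0.000554. Rh2, the opsin of the simple eyes, differed by -2.29 ± 0.50, adjusted p = 0.00528 while none of the other 28 phototransduction genes was called, and its call was lost in 6 of the 15 fits that each left out 1 library (adjusted p up to 0.0169, without male 28 °C replicate 2).

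CG33791, CG3323 and CG7886 were negative calls whose male group means lay between 144 and 615 CPM. CG33791 had 2.24, 2.17, 2.56 and 2.69 CPM in females at 28 °C, against 12.6, 12.8, 10.5 and 8.35 CPM in females at 24 °C, and 657, 551 and 637 CPM in males at 28 °C, against 671, 541, 533 and 499 CPM in males at 24 °C. The male groups overlapped, the female groups did not, and the difference was -2.33 ± 0.28, adjusted p = 1.63e-05. CG3323 differed by -2.39 ± 0.23, adjusted p = 2.24e-06, and CG7886 by -2.08 ± 0.43, adjusted p = 0.00357, a call lost without female 28 °C replicate 2 (adjusted p = 0.0114) and without female 24 °C replicate 3 (adjusted p = 0.0105). CG31875, with 0.599 to 1.76 CPM in females at 28 °C, against 5.95 to 6.79 CPM in females at 24 °C, averaged 14.8 CPM in males at 28 °C and 12.9 CPM in males at 24 °C, and differed by -2.95 ± 0.35, adjusted p = 1.74e-05. Testis markers were read in the same female libraries. Summed over the 14 in the table they stood at 183 to 204 in females at 28 °C, against 235 to 262 in females at 24 °C (CPM of library totals), most of it from bol, twe and ocn. Among those with almost no level in females, Mst77F averaged 0.164 in females at 28 °C and 0.234 in females at 24 °C, against 613.9 in males at 28 °C and 606.2 in males at 24 °C (CPM of library totals). In the same unit, S-Lap1 averaged 0.495 in females at 28 °C and 1.12 in females at 24 °C, with 2036 and 2075 in males. The level of lncRNA:roX1, given above, overlapped between the female groups. The part of male RNA in these differences was not tested. Of the 6 testis genes tested, bol (-0.91 ± 0.19, adjusted p = 0.00372) and mia (-0.74 ± 0.17, adjusted p = 0.00782) were negative calls (beside 2.63% of all genes). That of bol was lost without male 28 °C replicate 1 (adjusted p = 0.0119) and with scaling across all libraries (adjusted p = 0.0122). That of mia was lost in 11 of the 15 fits that each left out 1 library (adjusted p up to 0.0299, without male 28 °C replicate 1) and with scaling across all libraries (adjusted p = 0.0235). Of 30 ovary germline genes, orb (-0.85 ± 0.18, adjusted p = 0.00383) and piwi (-0.74 ± 0.18, adjusted p = 0.00967) were negative calls (beside 2.63% of all genes). The orb call was lost without male 28 °C replicate 1 (adjusted p = 0.0128) and with scaling across all libraries (adjusted p = 0.0149). The piwi call was lost in 13 of the 15 fits that each left out 1 library (adjusted p up to 0.0313, without male 28 °C replicate 3) and with scaling across all libraries (adjusted p = 0.0193). The summed ovary list was 5310 to 7405 in females at 28 °C, against 5299 to 6973 in females at 24 °C, so its level overlapped between the female groups.

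Of the 20 genes that moved in opposite directions, the 16 named by the rule for opposite changes differed by log2 values from -1.05 to 2.88. Cyp4ac3, Cyp6d2 and Cbs, named in other ways, also belong to the 20, with differences of -2.57, -1.56 and -0.80. Among those that rose in females and fell in males, CG6495 had 44.1, 48.5, 45.2 and 58.8 CPM in females at 28 °C, against 21.4, 20.1, 24.4 and 18.6 CPM in females at 24 °C, and 21.2, 24.7 and 23.6 CPM in males at 28 °C, against 24.9, 40.1, 42.8 and 38.9 CPM in males at 24 °C. Both pairs of groups stood apart, and the difference was 1.88 ± 0.21, adjusted p = 1.09e-05. CG31704 (1.92 ± 0.22), CG13965 (2.18 ± 0.23), CG11912, annotated as a trypsin-like protease (2.88 ± 0.52), and Cyp4p3 (1.74 ± 0.25) had differences above 1 as well. In the male libraries Cyp4p3 fell to 72.3, 52.1 and 48.1 CPM at 28 °C, against 109, 84.3, 98.6 and 82.5 CPM at 24 °C. The Golgi mannosidase gene alpha-Man-IIb rose by 0.40 in females, with a change of -0.74 in males, and CG17734 and conu differed by 0.68 ± 0.11 and 0.56 ± 0.10. Of those that fell in females and rose in males, fok had 211, 218, 228 and 279.7 CPM in females at 28 °C, against 323, 319, 345 and 311 CPM in females at 24 °C, and 394, 366 and 327 CPM in males at 28 °C, against 266, 301, 279 and 232 CPM in males at 24 °C, a difference of -0.90 ± 0.13, adjusted p = 0.000117. Karybeta3, an importin for ribosomal proteins among other cargo, differed by -0.59 ± 0.09, adjusted p = 0.000336, the ribosome assembly factor Ip259 by -0.66 ± 0.10, adjusted p = 0.000369, the helicase Dbp45A by -0.56 ± 0.10, adjusted p = 0.000834 and Pdcd4, a repressor of translation initiation, by -0.53 ± 0.09, adjusted p = 0.000507. The esterase alpha-Est1 (-1.05 ± 0.18), Usp47, a deubiquitinase (-0.56 ± 0.09), and the lipid droplet protein gene snz (-0.47 ± 0.08) followed them. Female changes in Karybeta3, Ip259, Dbp45A and Pdcd4 lay between -0.30 and -0.24, and male changes between 0.28 and 0.36. All 16 genes named by rule from the opposite sets were called in each of the 15 fits that left out 1 library.

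Of the 458 calls, 62 passed in males and not in females. CG17571, annotated as a serine protease and chosen after its values were seen, had 37.1, 30.1 and 47.5 CPM in males at 28 °C, against 119, 280.4, 214 and 301 CPM in males at 24 °C. In females it overlapped, at 223 to 322 CPM in females at 28 °C, against 262 to 392 CPM in females at 24 °C, and the difference was 2.27 ± 0.37, adjusted p = 0.000507. By contrast CG44142 fell in both sexes (log2 -1.65 in females), in males to 0.621, 0.588 and 0.498 CPM at 28 °C, against 5.94, 9.72, 6.89 and 11.5 CPM at 24 °C, and the difference was 2.24 ± 0.37, adjusted p = 0.000583. Ugt50B3, the only called gene of 27 UDP-glycosyltransferases, fell in males to 53.8, 65.1 and 74.9 CPM at 28 °C, against 196, 141, 123 and 140.2 CPM at 24 °C, with a difference of 1.65 ± 0.31, adjusted p = 0.00166. The sex determination gene dsx, whose spliced forms direct female or male development and which these counts do not separate, fell in males. It had 26.6 to 36.2 CPM in females at 28 °C, against 22.6 to 32.4 CPM in females at 24 °C, and 48.3, 51.7 and 58.4 CPM in males at 28 °C, against 78.4, 73.3, 76.8 and 80.8 CPM in males at 24 °C. The difference was 0.75 ± 0.16, adjusted p = 0.00419, lost without female 28 °C replicate 2 (adjusted p = 0.0114), without male 28 °C replicate 1 (adjusted p = 0.0176) and without male 28 °C replicate 2 (adjusted p = 0.0169). Pfas, an enzyme of purine synthesis, rose in males to 458, 158 and 83.8 CPM at 28 °C, against 46.2, 44.9, 69.6 and 47.5 CPM at 24 °C. The 3 males at 28 °C spanned 5.47-fold, and the call of -1.94 ± 0.44, adjusted p = 0.00684 was lost in 12 of the 15 fits that each left out 1 library (adjusted p up to 0.0201, without male 28 °C replicate 1). Smr, a corepressor of nuclear receptors and of Notch, fell in males (log2 -0.51) and differed by 0.65 ± 0.13, adjusted p = 0.00336, lost without male 28 °C replicate 2 (adjusted p = 0.0102) and without male 28 °C replicate 3 (adjusted p = 0.0102) and absent with library totals (adjusted p = 0.0101). The Notch ligand gene Ser rose in males, to 17.8, 16.6 and 17.6 CPM at 28 °C, against 10.1, 11.1, 10.1 and 11.5 CPM at 24 °C, with overlapping females and a difference of -1.09 ± 0.22, adjusted p = 0.00292. Adgf-D, of the family of secreted adenosine deaminases, had 61.4 to 125 CPM in males at 28 °C, against 24.3 to 36.6 CPM in males at 24 °C, and differed by -1.29 ± 0.26, adjusted p = 0.00318, lost without male 28 °C replicate 1 (adjusted p = 0.013). Smr, Ser and Adgf-D were chosen after their values were seen. Of 55 listed accessory gland genes, 8 were in the table. In the fit without the level filter, 6 of these 8 fell in males and 2, Acp24A4 and Est-6, did not pass. Over all 11152 genes of that fit, 1042 were called in males, 48.2% of them rises. Acp32CD, a protein of the seminal fluid, averaged 111.2 CPM in males at 28 °C and 403.8 CPM in males at 24 °C, a log2 change of -1.85, and lectin-46Ca averaged 70.02 CPM in males at 28 °C and 272.8 CPM in males at 24 °C (log2 -1.95). Female levels of both stayed under 1 CPM, and their differences of 0.65 and 1.32 did not pass. The levels of these 2 genes are CPM of library totals.

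Hormone and detoxification genes gave scattered calls. Ilp5, an insulin-like peptide of the brain, had 2.19, 2.95, 3.29 and 1.59 CPM in females at 28 °C, against 0.649, 0.843, 1.01 and 1.10 CPM in females at 24 °C, and 0.724, 0.979 and 0.946 CPM in males at 28 °C, against 2.94, 2.02, 1.98 and 1.05 CPM in males at 24 °C. The difference was 2.63 ± 0.42, adjusted p = 0.000488. InR, the insulin receptor, fell in females to 47.2, 45.8, 42.6 and 44.8 CPM at 28 °C, against 76.1, 76.1, 86.9 and 84.7 CPM at 24 °C, with a difference of -0.91 ± 0.17, adjusted p = 0.00152. ImpL2, a secreted protein that binds insulin-like peptides, differed by -0.95 ± 0.22, adjusted p = 0.00771, a call lost in 11 of the 15 fits that each left out 1 library (adjusted p up to 0.0194, without female 24 °C replicate 1) and with scaling across all libraries (adjusted p = 0.0109). Within the insulin and TOR list these 3, 1 positive and 2 negative, were the called genes of 26 (beside 4.72% of all genes). The count was 10 with DESeq2, 7 with library totals and 2 with scaling across all libraries (beside 910, 638 and 410 over all genes). It lay between 2 and 6 when 1 library was left out. Cytochrome P450 genes gave 5 positive and 2 negative calls of 67 tested (beside 2.09% and 2.63% of all genes; 10 and 4 with DESeq2, and 6 to 11 calls when 1 library was left out), with a median difference of 0.06. Cyp309a2 had 16.0 to 23.4 CPM in females at 28 °C, against 1.25 to 3.14 CPM in females at 24 °C, and 30.6 to 41.9 CPM in males at 28 °C, against 17.5 to 23.7 CPM in males at 24 °C, a difference of 2.42 ± 0.29, adjusted p = 1.74e-05. Cyp6a18 (1.93 ± 0.32), Cyp6w1 (1.66 ± 0.33) and Cyp4d8 (1.11 ± 0.22) were positive too, and Cyp6d2 was negative (-1.56 ± 0.30). The Cyp6w1 call was lost without male 28 °C replicate 2 (adjusted p = 0.0117), and that of Cyp4d8 without male 28 °C replicate 1 (adjusted p = 0.0112). MtnC, a metallothionein that binds metal ions, had 83.6 to 148 CPM in females at 28 °C, against 11.2 to 25.2 CPM in females at 24 °C, and 52.2 to 68.5 CPM in males at 28 °C, against 46.9 to 61.0 CPM in males at 24 °C, a difference of 2.36 ± 0.32, adjusted p = 5.97e-05, and it was the only call among 20 antioxidant genes. The glutathione transferases GstD9 (-1.10 ± 0.23, adjusted p = 0.00395) and GstZ1 (-0.68 ± 0.13, adjusted p = 0.00226) were negative, and the GstD9 call was lost without female 24 °C replicate 2 (adjusted p = 0.0101), without female 24 °C replicate 3 (adjusted p = 0.0102) and without male 28 °C replicate 1 (adjusted p = 0.0127). Obp99a and Obp99b, odorant-binding proteins, differed by 3.31 ± 0.35, adjusted p = 6.41e-06, and by 3.40 ± 0.68, adjusted p = 0.00275, although for Obp99b female replicate 4 at 28 °C (7.70 CPM) lay below female replicate 4 at 24 °C (7.84 CPM). Est-6, a carboxylesterase of the male ejaculatory duct that females also express, rose in females to 100.2, 239, 248 and 261 CPM at 28 °C, against 40.5, 84.2, 41.6 and 31.7 CPM at 24 °C, a difference of 2.33 ± 0.40, adjusted p = 0.000754. Clamp, a factor that guides dosage compensation, differed by 0.45 ± 0.10, adjusted p = 0.00524, but it passed neither with DESeq2 nor with library totals and was lost in 7 of the 15 fits that each left out 1 library (adjusted p up to 0.0187, without male 28 °C replicate 2). It was the only call among 7 dosage compensation genes, as dsx was among 10 sex determination genes and Est-6 among 2 accessory gland genes (beside 4.72% of all genes).

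The following genes were each chosen after their values were seen. Acbp3 and Acbp5, which bind acyl-CoA, differed by 2.31 ± 0.48, adjusted p = 0.00357, and by 1.56 ± 0.26, adjusted p = 0.000517, and the Acbp3 call was lost without male 28 °C replicate 2 (adjusted p = 0.0157). Acbp5 had 357 to 528 CPM in females at 28 °C, against 127 to 192 CPM in females at 24 °C, and 105 to 152 CPM in males at 28 °C, against 117 to 151 CPM in males at 24 °C. The amino acid transporter gene slif differed by 1.14 ± 0.25, adjusted p = 0.00495, lost in 8 of the 15 fits that each left out 1 library (adjusted p up to 0.0185, without male 28 °C replicate 1), and chrb, an inhibitor of TOR, by 0.58 ± 0.12, adjusted p = 0.00275. Mdr49, an ABC transporter, had 66.2 to 108 CPM in females at 28 °C, against 24.1 to 35.5 CPM in females at 24 °C, with overlapping males and a difference of 1.504 ± 0.23, adjusted p = 0.000249. Octalpha2R, a receptor for octopamine, fell in both sexes, to 3.53, 4.61, 4.06 and 5.00 CPM in females at 28 °C, against 11.8, 12.2, 14.8 and 10.5 CPM in females at 24 °C, with a log2 change of -0.70 in males. Its difference was -0.81 ± 0.16, adjusted p = 0.00228, and that of GABA-B-R1, a GABA receptor that fell in females, was -1.03 ± 0.19, adjusted p = 0.00138. The nuclear receptor genes Hr4 and Eip75B, which act downstream of ecdysone, went opposite ways, with differences of 1.00 ± 0.19, adjusted p = 0.00172, and -0.61 ± 0.13, adjusted p = 0.00407, and the Eip75B call was lost in 4 of the 15 fits that each left out 1 library (adjusted p up to 0.0164, without male 28 °C replicate 1). The meiosis gene c(3)G, a part of the synaptonemal complex, had 31.1 to 39.6 CPM in females at 28 °C, against 47.7 to 61.9 CPM in females at 24 °C, and differed by -0.92 ± 0.15, adjusted p = 0.000507. The transcription factor gene salr fell in females to 3.40, 2.63, 4.06 and 3.27 CPM at 28 °C, against 12.2, 13.9, 15.9 and 9.92 CPM at 24 °C, with a difference of -1.86 ± 0.22, adjusted p = 1.74e-05.

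Some called genes lay near each other. Within 10 kb of each other, 49 of the 203 positive genes formed 22 runs and 36 of the 255 negative genes formed 17. The same count for genes drawn from all those tested was not made, so these numbers do not show clustering. Some runs are overlapping pairs, such as Mocs2A with Mocs2B. The run of 5 on chromosome 2L and the PGRP-SC and lysozyme runs of 3 were the longest positive ones. By chromosome, the called share was 3.92% of 1581 tested genes on X, 5.73% of 1728 on 2L, 4.15% of 1998 on 2R, 5.27% of 1842 on 3L and 4.53% of 2408 on 3R, beside 4.72% overall. Some calls rest on overlapping genes. The antisense RNA asRNA:CR46195 (3.74 ± 0.41, adjusted p = 7.31e-06) lies within Trf4-1 on chromosome X (bases 8564408 to 8565178), and Trf4-1 was itself a call (0.63 ± 0.13, adjusted p = 0.00257), lost without male 28 °C replicate 1 (adjusted p = 0.0114) and with library totals (adjusted p = 0.0111), so reads of the pair cannot be told apart without strand, and 5 further pairs of called genes overlap, among them CG4456 and Hsp22.

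The differences also moved the gap between the sexes, described here without a test because these means set the calls. Of the 203 positive genes, the female mean lay below the male mean for 60 at 28 °C and for 154 at 24 °C. Of the 255 negative genes, the female mean lay below the male mean for 173 at 28 °C and for 97 at 24 °C. Over all 9698 genes the counts were 4630 at 28 °C and 4666 at 24 °C. The side of 0 on which a gap falls depends on the scale set between the sexes.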

How the data were processed

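Whole-fly poly(A) RNA was sequenced on DNA nanoballs. The submitters' processing notes name HISAT, StringTie, Cufflinks, Bowtie2, RSEM and DESeq2, and the build dm6. Whether counting used strand was not given in the sources used here. The authors deposited a table of expected counts per gene, with reads shared by copies split by estimation: 11152 features, 23.23% of values not whole. Of these, 11073 IDs matched RefSeq Release 6, which gave names and dm6 coordinates. Totals ran from 17727137 to 23194619 counts in the 15 libraries.

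Counts were rounded and analysed with edgeR 4.0.16 in R 4.3.3: genes at 0.5 CPM or more in all 23 libraries (9698), TMM factors computed within each sex, 6 group means, quasi-likelihood F-tests of the contrast of contrasts, p-values adjusted by Benjamini-Hochberg across the 9698 genes, and calls made under 0.01. The tests are two-sided. A log2 value with ± is given with its SE. The common biological coefficient of variation was 0.141. Alternatives were DESeq2 1.42.0, library totals, TMM over all libraries, other TMM references, a filter on mean CPM or none, a replicate block, the 15 libraries alone, a threshold of 0.05 and leaving out each library. Plots were drawn with matplotlib 3.10.9.

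Genes were named by rule: the 12 most positive and 12 most negative calls with the same sign in 3 fits, 8 genes of each opposite direction, up to 5 calls per list, and the Turandot, yolk and roX genes. The members and lists were chosen with earlier results of these data known. Single genes and the lists on methionine and glycine, translation factors, eIF3, basement membrane, PGRP-SC and epidermal growth factor receptor were added after the values were seen. The same holds for other named genes that none of these choices covers, such as Cyp6w1, Cyp4d8, LysD, mag, Jon25Biii, Jon65Ai, CG8997, CG33306, CG7968, Try29F, Tm2, BomS2, Mtk, Drs, upd3, Socs36E, Tep2, Tep4 and Stat92E. A called member of the methionine and glycine list is not reported here.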

Additional observations from a re-analysis of the deposited data

Results flagged for a closer look

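The change at 28 °C against 24 °C differed between females and males for 458 genes, which is the comparison described above. Among 561 groups of 4 libraries of the named genes, 23 (4.1%) had 1 library far from the rest by Dixon's criterion. Chance gives about 1 in 20 such groups. In females at 28 °C, replicate 1 was the low pool for Est-6 (100 CPM), ImpL2 (109 CPM), LanA (28.8 CPM), LanB1 (26.6 CPM), LysD (2407 CPM), pnt (17.9 CPM) and sty (27.4 CPM), and the high pool for eIF3b (680 CPM). Replicate 4 of the same group was the low pool for Lsp1beta (41.8 CPM), Nep7 (1.78 CPM) and Pfas (94.8 CPM), and replicate 3 the high pool for Try29F (12 CPM). In females at 24 °C, replicate 4 was low for LanA (57.9 CPM). In males at 24 °C, replicate 1 was low for RpL4 (1619 CPM) and RpS3 (997 CPM), replicate 2 low for upd3 (1.55 CPM), replicate 4 low for Pdcd4 (189 CPM) and eIF3l (196 CPM) and high for wupA (563 CPM). Replicate 3 of that group was high for Pfas (69.6 CPM), eEF1beta (312 CPM), eEF1gamma (1458 CPM) and pirk (38.1 CPM). The pool of females at 28 °C that was low for LanA and LanB1 was also the lowest for vkg and trol. The LanA, LanB1 and trol differences were still called when it was left out. Those of vkg (adjusted p = 0.0157), pnt (adjusted p = 0.012), sty (adjusted p = 0.0106) and ImpL2 (adjusted p = 0.0151) were lost.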

How the results depend on the processing

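The call of a sex difference depended on the scaling more than on the filter. The count of 458 became 910 with DESeq2, 275 with the 15 libraries alone and 1276 at a threshold of 0.05, and lay between 281 and 524 when 1 library was left out (281 without male 28 °C replicate 2, 290 without male 28 °C replicate 1). It was 481 of 10896 genes with a filter on mean CPM and 478 of 11152 with none. The share of positive calls, 44.3%, was 62.9% with scaling across all libraries, 31% with DESeq2, 27.9% with library totals and 57.8% with the TMM reference that gave the highest share. In females the share of rises, 39.1%, was 24.6% with library totals and 51.1% with that highest reference, and 4142 genes passed at a threshold of 0.05. In males the share, 47.7%, was 34.6% with scaling across all libraries, 2238 genes passed at 0.05, and leaving out 1 library gave 494 to 1183 calls (510 without male 28 °C replicate 1, 494 without male 28 °C replicate 2, 571 without male 24 °C replicate 1). The cause of these shifts was not tested, except that the fit of the 15 libraries has fewer samples and 0.05 is a looser threshold.

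Whether replicate numbers pair the samples was not settled. Same-numbered libraries of different groups correlated in their deviations between -0.447 and 0.32, most of them above 0. Libraries with different numbers correlated between -0.583 and 0.623. With the replicate number as a block, 526 genes were called for the difference, 2957 in females and 1206 in males. Without the block these counts were 458, 2730 and 998. Over 187 named genes and 45 alternatives, 7757 of 8415 values kept their direction and side of the threshold, 649 lost the call, 9 gained it and none reversed a called direction, and 96 genes were called in every alternative. Counting depth limits genes under about 5 CPM, such as Srg1 and upd3. Transcripts were counted per gene, so spliced forms were not analysed here.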
